A study of Mus musculus with 6 samples.

Results

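Fos, Fosl2, Mafk, Klf4 and Ier3 are 5 genes of the immediate-early and AP-1 class, and they were followed here in the hearts of diabetic mice treated with a variant of fibroblast growth factor 1 (FGF1). They are 5 of the 4132 genes analysed, found by their gene names, and they were selected on their FPKM values in the vehicle and treated mice compared here. Hearts were taken from male db/db mice, which carry a mutation of the leptin receptor gene on both alleles (lepr-/- in the labels) in every tissue and become obese and diabetic. From 10 weeks of age, 3 mice received FGF1ΔHBS, a variant with a mutated heparin-binding site, at 0.5 mg/kg by intraperitoneal injection every other day for 16 weeks, and 3 mice received saline (vehicle). The mice of both groups were 26 weeks old at harvest, both groups carried the db/db genotype, and hearts of lean control mice were not analysed here. Each library came from 1 mouse, and the time between the last injection and the harvest is not given in the sources used here.

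Immediate-early genes are switched on within minutes when a cell receives a growth factor, stretch, calcium or stress signal, without new protein synthesis, and their mRNAs are short-lived. Kinases of the MAP kinase family carry such signals to factors already bound at these genes, among them the serum response factor with its partner Elk-1, and CREB. Fos and Fosl2 encode proteins of the basic leucine zipper class that pair with Jun proteins to form AP-1, a dimer that binds DNA and drives genes of growth, matrix turnover and inflammation. In the heart this programme is best known from pressure load, ischemia and reperfusion.

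The other 3 genes have different roles. Mafk encodes a small Maf protein, which has a leucine zipper but no activation domain of its own, and which pairs with Nrf2 or Bach1 at antioxidant response elements. Klf4 encodes a zinc finger factor that acts in endothelial cells, smooth muscle and cardiomyocytes. Ier3, also called IEX-1, encodes a short protein of the stress response that acts on cell survival and is not a transcription factor. The annotation column deposited with the table placed Fos, Fosl2 and Mafk in the bZIP family and Klf4 among the C2H2 zinc fingers, and gave no family for Ier3.

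The genes differ in size. In GENCODE M21 on GRCm38, Fos (ENSMUSG00000021250) lies at chr12:85473890-85477273 on the plus strand, with 4 exons in its longest transcript of 2108 bases. Fosl2 (ENSMUSG00000029135) lies at chr5:32135801-32157842 on the plus strand, with 4 exons and a longest transcript of 6537 bases. Mafk (ENSMUSG00000018143) is on the same chromosome at chr5:139791513-139802653, with 3 exons. Klf4 (ENSMUSG00000003032) lies at chr4:55527143-55532466 on the minus strand, with 5 exons. Ier3 (ENSMUSG00000003541) is the shortest, at chr17:35821684-35822923 on the plus strand, with 2 exons and a longest transcript of 1131 bases. The deposited locus of Mafk ran further than the gene, to position 139826885, and also covered Tmem184a, Gm26938 and Psmg3 on the other strand. None of these 3 neighbours had a row in the table, so the level given for Mafk may hold fragments of them, and whether the counting used strand is not given in the sources used here.

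The stretches just upstream of 4 of the genes are shown because they differ in the short motifs that they hold. Whether a signal reaches these genes through the stretches shown was not tested. The sequences are from RefSeq on GRCm38.p6 and run 5′ to 3′ on the strand of the gene, up to the first annotated start. They cover chr12:85473640-85473889 for Fos, chr5:139791286-139791512 for Mafk, chr4:55532476-55532725 for Klf4 and chr17:35821463-35821683 for Ier3. Capitals mark 3 short motifs, on either strand. The first, TGACG, opens the cAMP response element to which CREB binds. The next, TATAAA, is a form of the TATA box of the core promoter, and other forms were not searched. The last is the GC box, to which SP and KLF factors bind, written GGGCGG.
Fos: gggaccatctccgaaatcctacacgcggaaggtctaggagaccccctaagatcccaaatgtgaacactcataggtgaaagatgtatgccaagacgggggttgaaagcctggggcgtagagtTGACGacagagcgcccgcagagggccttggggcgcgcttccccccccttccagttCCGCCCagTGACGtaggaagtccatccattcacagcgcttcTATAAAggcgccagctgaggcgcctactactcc
Mafk: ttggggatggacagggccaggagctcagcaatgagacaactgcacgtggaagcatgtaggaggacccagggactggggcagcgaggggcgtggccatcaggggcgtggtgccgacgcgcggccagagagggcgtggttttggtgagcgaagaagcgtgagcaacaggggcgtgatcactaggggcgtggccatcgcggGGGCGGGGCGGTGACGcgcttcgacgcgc
Klf4: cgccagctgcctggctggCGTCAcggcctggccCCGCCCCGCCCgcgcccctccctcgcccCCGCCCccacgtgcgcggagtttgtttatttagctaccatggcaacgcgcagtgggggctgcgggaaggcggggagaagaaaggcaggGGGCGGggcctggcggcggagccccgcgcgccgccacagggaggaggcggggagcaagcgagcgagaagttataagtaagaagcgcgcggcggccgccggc
Ier3: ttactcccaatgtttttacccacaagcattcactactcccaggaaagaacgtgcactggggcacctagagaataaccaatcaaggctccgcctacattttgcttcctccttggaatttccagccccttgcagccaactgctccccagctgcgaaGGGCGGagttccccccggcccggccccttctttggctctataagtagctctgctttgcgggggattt

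TGACG was found in the 250 bases upstream of the RefSeq start of Fos (from -129 and from -66), Mafk (from -41) and Klf4 (from -232, on the other strand), and in 17.8% of the 32851 promoters of the same length. It was not found for Fosl2 or Ier3. The sequence of Fosl2 is not shown, since its RefSeq start lies 671 bases downstream of the GENCODE start. TATAAA was found in Fos alone of the 5 genes, from -33, and in 12.4% of all promoters. The Klf4 and Ier3 sequences hold TATAAG, which differs in its last letter, so no lack of a TATA box is read here. GGGCGG was found in all 5 genes and in 32.7% of all promoters, and in Mafk and Klf4 neighbouring matches overlap by 1 base. The 5 windows held between 54.4% and 74% GC, against a median of 52.4% over all promoters, and promoters of like GC content were not compared. CCAAT was found in Ier3 alone of the 5 (from -244 and from -175) and in 33.8% of all promoters. The full element TGACGTCA, which contains TGACG and was in 1.55% of all promoters, was in none of the 5 windows. Neither were the AP-1 site TGANTCA (6.75%) and the CArG box bound by serum response factor (1.47%). A match to these letters is a description of the sequence, and no match says only that the letters are absent from this window. Sequence further upstream was not searched, so a CArG box or AP-1 site there would have been missed.

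Levels are given as FPKM, fragments per kilobase of transcript corrected for the size of the library, as deposited. The libraries summed to between 152340 and 232837 FPKM over the genes analysed, the lowest being vehicle mouse 2, in which mt-Co2 and Gm28661 were listed at 0. Without these 2 genes the sums lay between 152340 and 158284 with vehicle and between 163033 and 167961 with FGF1ΔHBS. They were thus higher in each treated mouse than in any vehicle mouse. Counts of reads cannot be had from FPKM, so the depth behind each value is unknown. The 4 cardiomyocyte markers analysed (Tnnt2, Actc1, Atp2a2 and Tbx20, of 19 listed) summed to between 10800 and 12300 FPKM with vehicle and between 11400 and 12700 FPKM with FGF1ΔHBS. The labels give the tissue as heart.

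Among the AP-1 subunits, Fos had the lower level in the treated hearts by the widest margin of the 5 genes. Its level was 5.64, 10.7 and 13.8 FPKM in vehicle mice 1, 2 and 3, and 0.89, 0.45 and 1.04 FPKM in FGF1ΔHBS mice 1, 2 and 3. Every treated mouse lay below every vehicle mouse, and the lowest vehicle value was 5.45 times the highest treated value. The means were 10.0 ± 4.1 FPKM in the vehicle group against 0.792 ± 0.305 FPKM in the treated group (mean ± SD, n = 3 in each), a ratio of 12.7. On the scale of log2(FPKM + 1), which understates the change of low values, the difference was -2.56, rank 2 from the lowest of the 2041 genes tested, whose mean was 1 FPKM or more. Fos was above 80.7% of the genes analysed by its mean level with vehicle, and above 48.7% with FGF1ΔHBS. These values chose the gene, so they are given as a description, with no test reported.

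Fosl2, which encodes the AP-1 subunit Fra-2, had a lower mean with FGF1ΔHBS, but its groups overlapped. Its level was 3.26, 10.7 and 9.07 FPKM in vehicle mice 1, 2 and 3, and 3.5, 2.99 and 2.97 FPKM in FGF1ΔHBS mice 1, 2 and 3. Vehicle mouse 1 was at the level of the treated mice, and the other vehicle mice were well above it. The means were 7.66 ± 3.9 FPKM and 3.15 ± 0.299 FPKM (± SD, n = 3 in each group), a ratio of 2.43 and a difference of -0.94 on the log2 scale. The treated mice were alike, the highest being 1.18 times the lowest, whereas the vehicle mice differed by 3.27 times. Batf3, which encodes another leucine zipper partner of Jun, was the only further AP-1 subunit analysed of the 14 listed, and its level was under 0.3 FPKM in each mouse. The Jun genes, Fosb and Fosl1 were not analysed here.

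Mafk was lower in each treated mouse than in any vehicle mouse. Its level was 15.0, 19.0 and 17.6 FPKM in vehicle mice 1, 2 and 3, and 11.7, 9.81 and 11.0 FPKM in FGF1ΔHBS mice 1, 2 and 3. The lowest vehicle mouse was 1.27 times the highest treated mouse. The means were 17.2 ± 2.04 FPKM and 10.9 ± 0.982 FPKM (± SD, n = 3 in each group), a ratio of 1.58 and a log2 difference of -0.61. The within-group SD of Mafk on the log2 scale was 0.14, against a median of 0.13 over the genes tested, whereas those of Fos and Fosl2 were 0.46 and 0.56.

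Klf4 was also lower in each treated mouse than in any vehicle mouse, but by a small gap. Its level was 11.8, 17.6 and 15.4 FPKM in vehicle mice 1, 2 and 3, and 11.4, 7.75 and 11.1 FPKM in FGF1ΔHBS mice 1, 2 and 3. The lowest vehicle mouse was 1.03 times the highest treated mouse. The means were 14.9 ± 2.94 FPKM and 10.1 ± 2.04 FPKM (± SD, n = 3 in each group), a ratio of 1.48 and a log2 difference of -0.52.

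Ier3 stood apart from the other 4. Its level was 18.6, 21.8 and 24.3 FPKM in vehicle mice 1, 2 and 3, and 29.6, 23.5 and 19.1 FPKM in FGF1ΔHBS mice 1, 2 and 3. The groups overlapped in most of their range, and the highest and the second lowest of the 6 values were both from treated mice. The means were 21.5 ± 2.88 FPKM and 24.1 ± 5.27 FPKM (± SD, n = 3 in each group), and the log2 difference was 0.14.

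Of the 5 genes, 3 (Fos, Mafk and Klf4) were lower in all treated mice with no overlap, and none was higher with no overlap. Over all 2041 genes tested, 13.6% were lower with no overlap and 10.7% were higher. Since the 5 genes were selected with this comparison known, nothing is read from their count. In these whole-heart samples, fewer cells of a type and less RNA per cell cannot be told apart.

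**Figure D1:**
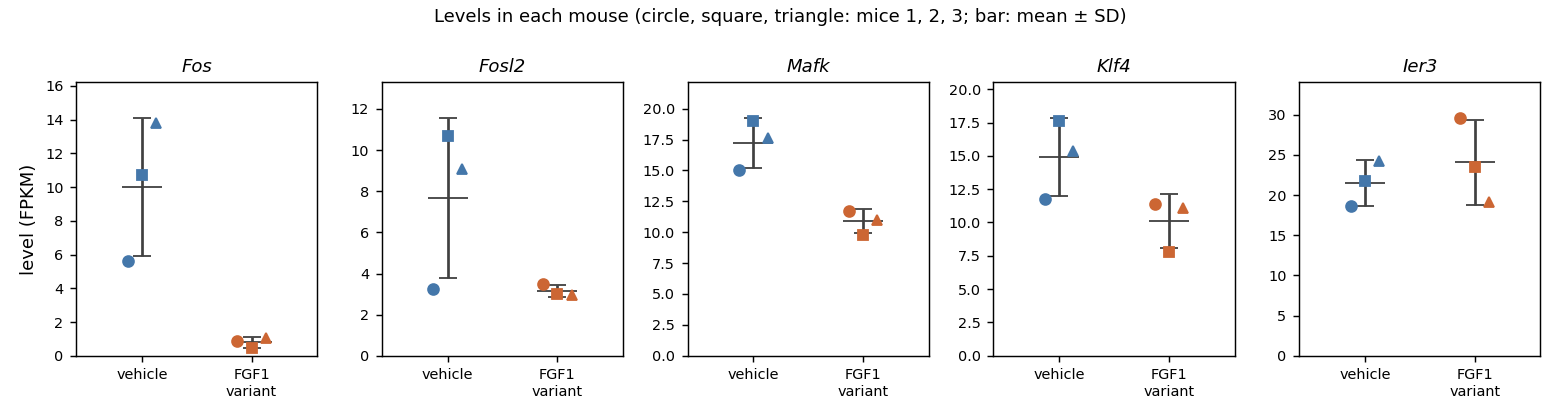
Level in FPKM (vertical axes, each from 0) of the 5 genes in the vehicle group (blue) and the FGF1ΔHBS group (orange, labelled FGF1 variant). Each point is 1 mouse and the bars give the mean ± SD of 3 mice. Fos is between 5.64 and 13.8 FPKM with vehicle and between 0.45 and 1.04 FPKM with FGF1ΔHBS, while the groups of Fosl2 and Ier3 overlap.

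The order of the 5 levels differed between the groups. With vehicle, the means ran from Ier3 through Mafk, Klf4 and Fos to Fosl2, and each neighbouring pair overlapped between mice, although within each of the 3 mice the order was the same. In vehicle mouse 2, Fos and Fosl2 were nearly equal. With FGF1ΔHBS, Ier3 was above Mafk with no overlap, Mafk and Klf4 overlapped, and Fosl2 and then Fos followed below with no overlap. Fos was thus above Fosl2 with vehicle and below it with FGF1ΔHBS. FPKM is scaled to length, so these are levels per length of transcript.

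All 5 genes had their lowest vehicle value in mouse 1, where 29.6% of the genes tested had theirs. The highest vehicle value was in mouse 2 for 3 genes and in mouse 3 for the other 2. Across the deviations of all 6 mice from the means of their groups, the log2 values of Mafk and Klf4 had a Pearson correlation of 0.97, and the other pairs among Fos, Fosl2, Mafk and Klf4 lay between 0.73 and 0.84. Pairs with Ier3 lay between 0.32 and 0.54. These are descriptions over 6 libraries that the genes share, with no test.

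Because vehicle mouse 1 was low and vehicle mouse 2 lacked values for the 2 genes above, the differences are also given with each left out. Without vehicle mouse 1 the log2 difference was -2.89 for Fos, -1.39 for Fosl2, -0.7 for Mafk, -0.67 for Klf4 and 0.04 for Ier3. Without vehicle mouse 2 it was -2.48 for Fos, -0.66 for Fosl2, -0.54 for Mafk, -0.4 for Klf4 and 0.15 for Ier3. With any 1 of the 6 mice left out, the differences of Fos, Mafk and Klf4 could only stay below 0, since their groups did not overlap. The difference of Fosl2 lay between -1.39 and -0.66, and that of Ier3 between -0.01 and 0.29.

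**Figure D2:**
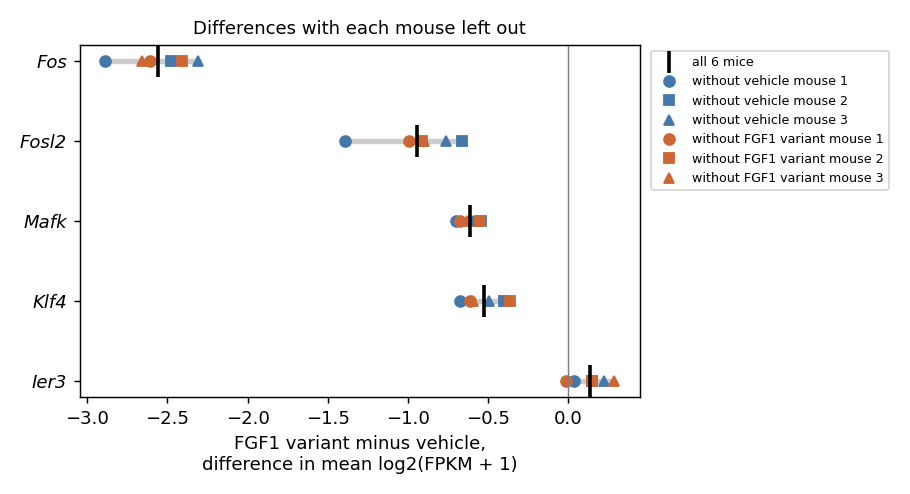
Difference in mean log2(FPKM + 1), FGF1ΔHBS minus vehicle (horizontal axis), for each of the 5 genes. The black line is the value from all 6 mice and each symbol the value with the named mouse left out. Fos lies between -2.89 and -2.31, Fosl2 has the widest range of the 5, from -1.39 to -0.66, and Ier3 lies on both sides of 0.

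The list of immediate-early genes used for comparison held 83 genes, of which 13 besides the 5 selected genes were analysed, and 12 of those were tested with limma on log2(FPKM + 1). None of the 12 reached an adjusted p under 0.05 by limma with Benjamini-Hochberg adjustment over all 2041 genes. Of all genes, 0.0980% passed this threshold (2 genes), a count taken with the 5 selected genes in the fit. At an unadjusted p under 0.05, 3 of the 12 were lower (Nr4a3, Bhlhe40 and Klf10) and 0 were higher, where 10.0% of all genes were lower and 7.10% were higher. The same 3 genes were lower with no overlap, of 12, against 13.6% of all genes. Of the 12, 8 had a difference below 0 and 4 above 0. Their median log2 difference was -0.23, against -0.02 for all genes tested. This list and the other pathway lists were written with earlier results of these data known, so nothing is read from such counts and medians.

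Nr4a3, which encodes the nuclear receptor Nor-1, had the lowest difference of the 12. Its level was 0.947, 3.35 and 5.33 FPKM in vehicle mice 1, 2 and 3, and 0.538, 0.17 and 0.321 FPKM in FGF1ΔHBS mice 1, 2 and 3. As with the 5 selected genes, vehicle mouse 1 was the lowest of its group, here less than 1 FPKM, and it lay close to the treated mice. The log2 difference was -1.50 ± 0.4 (SE), which did not pass (adjusted p = 0.13 by limma). Nr4a2, its paralogue, was under the mean level set for the test, and its groups overlapped.

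Bhlhe40, a transcriptional repressor linked to the clock and to hypoxia, was at 11.9, 16.3 and 15.6 FPKM in vehicle mice 1, 2 and 3, and at 9.82, 9.91 and 10.1 FPKM in FGF1ΔHBS mice 1, 2 and 3. The treated mice were nearly equal, and vehicle mouse 1 was again the lowest of its group. Its log2 difference was -0.50 (SE 0.12, adjusted p = 0.116 by limma). Without vehicle mouse 1, the vehicle mouse nearest to the treated mice, the differences of Nr4a3 and Bhlhe40 were -1.98 and -0.63 (adjusted p = 0.0387 and 0.0431 by limma), and 7 of all genes passed. With any other mouse left out neither gene passed, Nr4a3 lying between -1.6 and -1.13 (adjusted p between 0.0793 and 0.362) and Bhlhe40 between -0.51 and -0.42 (adjusted p between 0.0807 and 0.349).

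Plk2, a kinase of the polo family that is induced by serum, had overlapping groups and a log2 difference of -0.44 ± 0.19 (SE, adjusted p = 0.299 by limma). The 4 genes with a difference above 0 were Id2 (0.43), Id3 (0.28), Zfp36l1 (0.15) and Rnd3, and the groups of each overlapped. Id2 and Id3 encode proteins that block basic helix-loop-helix factors. Their standard errors were 0.2 and 0.16 on the log2 scale, and limma gave adjusted p-values of 0.325 and 0.4.

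**Figure D3:**
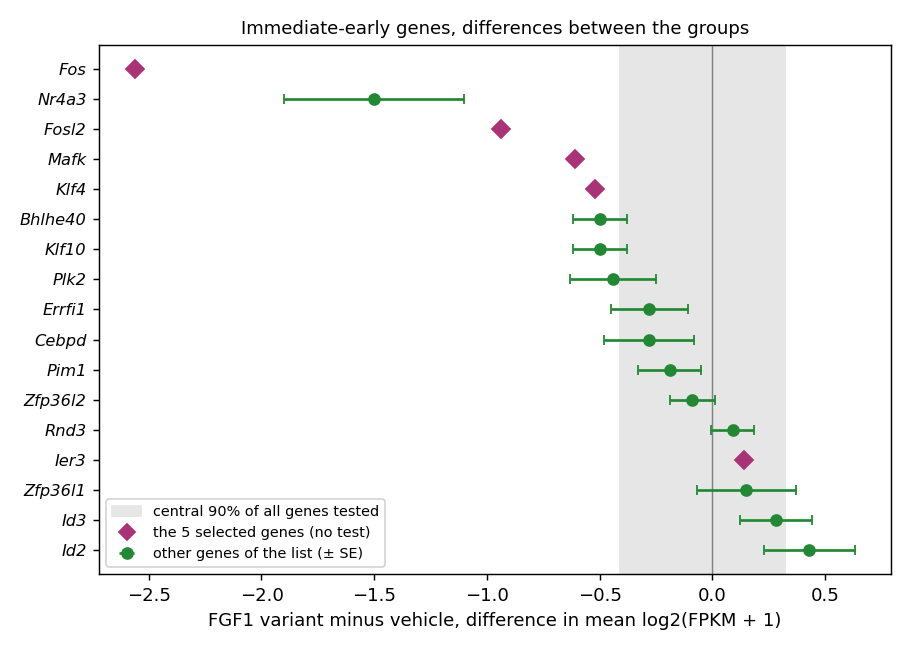
Difference in mean log2(FPKM + 1), FGF1ΔHBS minus vehicle (horizontal axis), for the 5 selected genes (diamonds, no test) and the other 12 immediate-early genes tested (circles, with the SE from limma). The grey band holds the central 90% of the 2041 genes tested, from -0.41 to 0.32. Fos at -2.56 and Nr4a3 at -1.50 lie furthest outside it, and Ier3 at 0.14 lies inside.

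Of the factors related to Klf4, 3 more members of the KLF family were analysed of the 26 listed. All 3 had a difference below 0, as did 1118 of the 2041 genes tested. Klf10, among these 3, was also counted with the immediate-early genes above. Klf11 was at 6.97, 5.39 and 4.67 FPKM in vehicle mice 1, 2 and 3, and at 2.68, 2.23 and 3.27 FPKM in FGF1ΔHBS mice 1, 2 and 3. Its groups did not overlap, and among the vehicle mice the order was the reverse of that of Fos, with mouse 1 highest. The log2 difference of Klf11 was -0.84 (SE 0.16, adjusted p = 0.116 by limma). It passed without vehicle mouse 3 (-0.95, adjusted p = 0.0247 by limma, where 82 of all genes passed), and with any other mouse left out it lay between -0.94 and -0.7 with adjusted p-values from 0.153 to 0.346. Klf10, a factor induced by TGF-β, was at 6.49 ± 0.829 FPKM in the vehicle group against 4.29 ± 0.586 FPKM in the treated group (mean ± SD, n = 3 in each), and its groups did not overlap either. Its log2 difference was -0.50 (SE 0.12, adjusted p = 0.116 by limma). Klf3, a repressor of the family, had overlapping groups and a log2 difference of -0.13. Over all genes tested, 13.6% were lower with no overlap.

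Nfe2l2 encodes Nrf2, the partner of small Maf proteins such as Mafk. Its level was 26.5, 29.6 and 32.3 FPKM in vehicle mice 1, 2 and 3, and 25.7, 22.2 and 23.3 FPKM in FGF1ΔHBS mice 1, 2 and 3. The groups did not overlap, with vehicle mouse 1 the lowest of its group and just above the highest treated mouse. The log2 difference was -0.30 (SE 0.094), which did not pass (adjusted p = 0.172 by limma). Nfe2l3 was under 0.2 FPKM in each mouse, and the other Maf genes were not analysed here.

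The table's own bZIP label, looked up after the values were seen, marked 7 further genes, of which 4 were tested. Atf4, the effector of the integrated stress response, was at 45.8 ± 3.19 FPKM in the vehicle group against 34.1 ± 4.35 FPKM in the treated group (mean ± SD, n = 3 in each), with no overlap (adjusted p = 0.116 by limma). Tef and Creb3l2 overlapped between the groups. The median log2 difference of the 4, which include Nfe2l2, was -0.25, against -0.02 for all genes tested.

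Upstream of Fos, 7 of 44 listed kinases and factors were analysed, and none passed the adjusted threshold. At an unadjusted p under 0.05, 1 of the 7 was lower, Nras, a small GTPase of the Ras family, and 0 were higher, a share near the 10.0% of all genes that were lower. Nras was at 7.88 ± 0.715 FPKM in the vehicle group against 5.99 ± 1.17 FPKM in the treated group (mean ± SD, n = 3 in each). Its groups overlapped, and the log2 difference was -0.36 (SE 0.13, adjusted p = 0.238 by limma). Elk3, a partner of serum response factor, had a log2 difference of -0.28 with a SE of 0.33. For the MAP kinases Mapk8 (JNK1) and Mapk7 (ERK5) the differences were 0.14 and -0.09. The median of the 7 was -0.02, the same as that of all genes tested.

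Of 32 listed targets of AP-1, 7 were analysed and 6 tested, and none of the 6 passed the adjusted threshold. Hmox1, which encodes heme oxygenase 1 and is also bound by Nrf2 with small Maf proteins, was at 7.07 ± 1.21 FPKM in the vehicle group against 4.73 ± 0.624 FPKM in the treated group (mean ± SD, n = 3 in each). Its groups did not overlap, and the log2 difference was -0.49 (SE 0.13, adjusted p = 0.137 by limma). Nppa, which encodes atrial natriuretic peptide, ranged from 62.2 to 431 FPKM with vehicle and from 22.7 to 75.4 FPKM with FGF1ΔHBS, so its groups overlapped. The log2 difference of Nppa was -1.91 (SE 0.7, adjusted p = 0.231 by limma). It depended on single mice, from -1.23 without vehicle mouse 2, the highest (adjusted p = 0.424 by limma), to -2.61 without vehicle mouse 3, the lowest of its group (adjusted p = 0.0389, where 82 of all genes passed). Tgfb1 and the matrix protease Mmp2 had overlapping groups, with adjusted p-values of 0.357 and 0.802 by limma. At an unadjusted p under 0.05, 2 of the 6 were lower (Hmox1 and Nppa) and 0 higher, against 10.0% and 7.10% of all genes, and the median log2 difference of the 6 was -0.21.

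**Figure D4:**
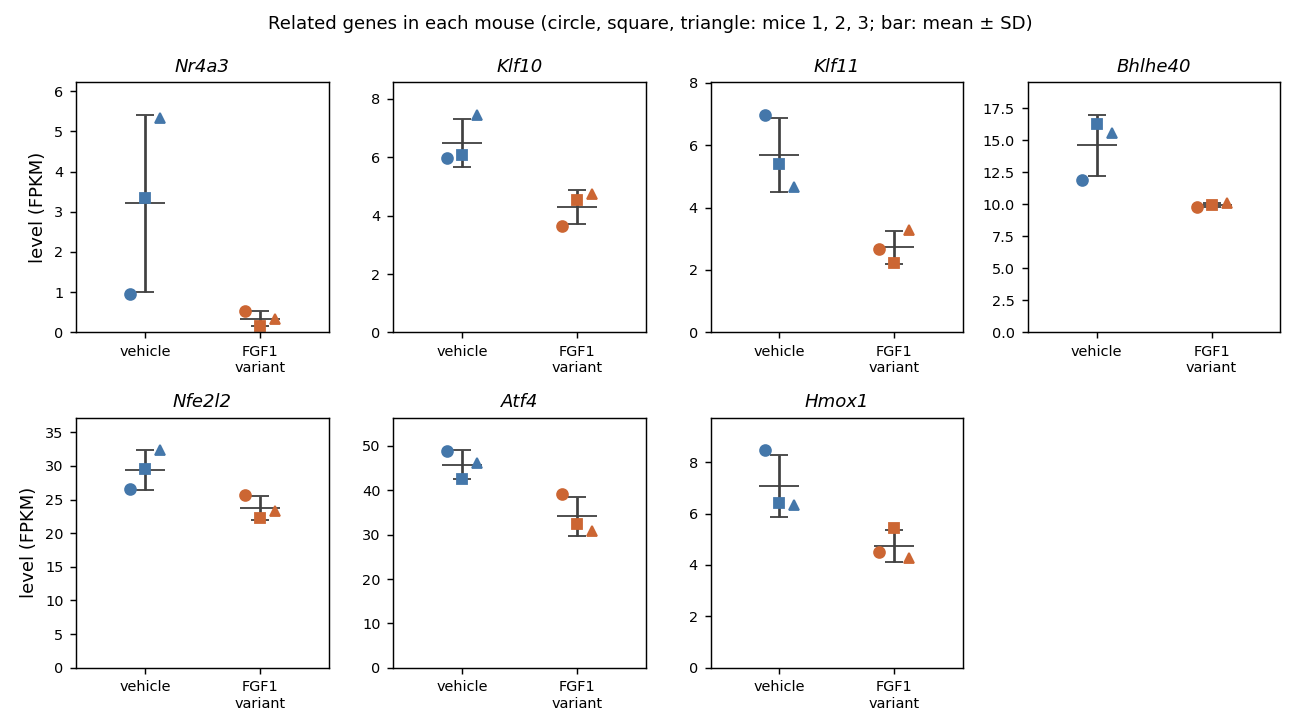
Level in FPKM (vertical axes, each from 0) of 7 genes related to the 5 selected genes and shown because their groups did not overlap, in the vehicle group (blue) and the FGF1ΔHBS group (orange, labelled FGF1 variant), with 1 point per mouse and the mean ± SD of 3 mice. Vehicle mouse 1 (circle) is lowest of its group for Nr4a3, Klf10, Bhlhe40 and Nfe2l2, and highest for Klf11, Atf4 and Hmox1.

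Immediate-early mRNAs are cleared by proteins that bind AU-rich elements and by deadenylation. Of 29 listed genes for this, 4 were analysed (Zfp36l1, Zfp36l2, Cnot1 and Parn), and 0 passed. By limma, 0 also had an unadjusted p under 0.05. Their log2 differences were 0.15, -0.09, 0.06 and -0.04, with standard errors of 0.22, 0.099, 0.078 and 0.12.

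Genes listed for heat shock and hypoxia, only some of which respond quickly to stress of a tissue, were set beside the immediate-early genes. Of 4 heat shock genes tested, 0 passed the adjusted threshold, and 3 were lower at an unadjusted p under 0.05 and with no overlap, where 10.0% and 13.6% of all genes were. Hsp90aa1, Hsp90ab1 and Hspb1 encode chaperones, and their log2 differences were -0.46, -0.34 and -0.45 (adjusted p = 0.116, 0.116 and 0.172 by limma). Hspa1b, the inducible form of Hsp70, had overlapping groups and a log2 difference of 0.23. Of 4 genes tested from the hypoxia list, Hif1a was lower with no overlap (-0.38, adjusted p = 0.217 by limma). Ndrg1 (0.02), Ddit4 (-0.13) and Ankrd37 (0.32) overlapped between the groups. Ankrd37 ranged from 0.19 without vehicle mouse 2 (adjusted p = 0.766 by limma) to 0.54 without vehicle mouse 3 (adjusted p = 0.0356, where 82 of all genes passed).

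Some markers of other cells had groups that did not overlap, but none of those tested passed the adjusted threshold. Over all genes tested, 13.6% were lower with no overlap and 10.7% were higher. Dcn, the only fibroblast marker analysed of 12 listed, was between 154 and 288 FPKM with vehicle and between 368 and 431 FPKM with FGF1ΔHBS. Cd14, the only macrophage and monocyte marker analysed of 15, was between 3.84 and 9.17 FPKM with vehicle and between 2.4 and 3.04 FPKM with FGF1ΔHBS. Adipoq, the only adipocyte marker analysed of 11, was between 0 and 0.217 FPKM with vehicle and between 0.246 and 1.21 FPKM with FGF1ΔHBS. Limma gave an adjusted p of 0.154 for Dcn and 0.23 for Cd14, and Adipoq was under the mean level set for the test. For these cell types only 1 gene each was read, so whether the number of such cells differed cannot be told. The summed markers of the other cell types listed overlapped between the groups, and so did their single markers except Acta2 and Esam. Acta2, the smooth muscle actin, was between 10.3 and 14.1 FPKM with vehicle and between 17.5 and 27.3 FPKM with FGF1ΔHBS (log2 difference 0.82, adjusted p = 0.116 by limma), while Pdgfrb, the other smooth muscle and pericyte marker analysed, overlapped. Esam, 1 of 3 endothelial markers analysed, was between 29.9 and 36.5 FPKM with vehicle and between 25.1 and 29.0 FPKM with FGF1ΔHBS (log2 difference -0.33, adjusted p = 0.154 by limma). The part of these cells in the levels of the 5 genes was not tested.

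The differences of all genes ran with the GC content of the transcript across genes (Spearman's rho -0.222 over 2039 genes, which are not independent replicates), and the transcripts of the 5 genes held between 51.9% and 56.2% GC, against a median of 49.9%. With GC content corrected in each library, the log2 differences were -2.55 for Fos, -0.91 for Fosl2, -0.57 for Mafk, -0.49 for Klf4 and 0.17 for Ier3.

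Over the 6 libraries, the genes whose log2 levels were most like those of Fos were Pskh1 (Pearson's r 0.981), Mafk (0.977), Parvb (0.973), Rin3 (0.971) and Hivep1 (0.971). Their differences between the groups were smaller than that of Fos, from -0.21 for Pskh1 to -0.61 for Mafk. By deviations from the group means, which leave the difference between the groups out, the most like were D3Ertd751e (0.992), Epn3 (0.985), Surf4 (0.979), Mettl4 (0.978) and Mat2a (0.976). None of these 5 differed between the groups by more than 0.17 on the log2 scale. With 6 libraries and 2041 genes such values are a description only.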

How the data were processed

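Poly(A) RNA from 6 hearts was sequenced, 3 per group. Per the labels, the libraries were paired-end, whereas the study's methods describe single-end reads and name Trimmomatic, and the preparation is described for adipose tissue. The submitters' processing notes name Bowtie 0.12.2, HISAT2 2.0, StringTie 1.3.0 and the build mm8. The deposited gene loci lay on GRCm38, where 2098 of 4132 were identical to GENCODE M21 (with a start counted from 0). The authors deposited FPKM values, 1 per gene and mouse, which were used unchanged. The table analysed here holds part of the genes. Ratios of the lowest values placed depths between 1 and 1.21 times that of vehicle mouse 1. In each other library the ratio used was shared by 15 to 26 genes, of 764 to 827 compared, so the depths remain uncertain.

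Genes whose mean reached 1 FPKM, 2041 in all, were fitted as log2(FPKM + 1) with limma 3.58.1 in R 4.3.3 (lmFit, eBayes with trend, two-sided, no block), with p-values adjusted by Benjamini-Hochberg over all 2041 genes and a threshold of 0.05. The script was tested on simulated data. The 5 genes and the lists were chosen with earlier results of these data known, so the 5 genes stayed in the fit and in the counts over all genes, but no test of them is reported. In each list, genes past the threshold and up to 4 more with the largest difference were named, with paralogues of the 5 and the genes most like Fos. Other genes named (Atf4, Tef, Creb3l2, Id2, Id3, Rnd3, Nr4a2) were chosen after their values were seen. The alternatives were no filter, a minimum of 5 FPKM, a pseudocount of 0.1, median ratio scaling, quantile normalization, eBayes without trend or robust, a replicate block, a GC correction, both of these, and leaving out each mouse. A gene that the lists would name is not reported here and was left out of the lists, but it stayed in the fits and in the counts over all genes.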

Additional observations from a re-analysis of the deposited data

How the results depend on the processing

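By limma, 2 genes reached an adjusted p under 0.05. This became 4 with a pseudocount of 0.1, 5 with robust eBayes, and 1 under median ratio scaling, quantile normalization or eBayes without trend. It became 0 without a filter, where 488 genes had an unadjusted p under 0.05. Leaving out each mouse gave from 0 to 82 genes, the 82 without vehicle mouse 3 and the 0 without vehicle mouse 2 or FGF1ΔHBS mouse 2. The genes with an unadjusted p under 0.05 then numbered from 231 to 494. Of the pathway genes, 0 of 38 passed. At an unadjusted p under 0.05 by limma, 12 were lower and 0 higher, where 10.0% of all genes were lower and 7.10% higher. The lists were written with earlier results of these data known, so nothing is read from this count. With each mouse left out, from 0 to 3 pathway genes passed, the 3 without vehicle mouse 3 being Ankrd37, Klf11 and Nppa. Of the 12 immediate-early genes, 0 passed, and with each mouse left out from 0 to 2. By unadjusted p there were 3, with 5 under median ratio scaling and a range from 3 to 5 when each mouse was left out. Their median log2 difference of -0.23 ranged from -0.3 to -0.1 when each mouse was left out, the latter without FGF1ΔHBS mouse 1. The log2 difference of Fos was -3.48 with a pseudocount of 0.1, where low values weigh more. Where an alternative did not itself alter which genes or mice entered, the cause was not tested. Under every alternative run, the differences of Fos, Fosl2, Mafk and Klf4 stayed below 0. The filters, the replicate block and the eBayes settings leave these differences unchanged. Leaving out a mouse or changing the pseudocount cannot turn the sign for Fos, Mafk and Klf4, whose groups did not overlap.

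With a replicate block in the fit, 0 genes and 0 pathway genes passed, and 269 genes had an unadjusted p under 0.05. With the block and the GC correction, 0 and 0 passed. Same-numbered mice did not deviate together (correlations across genes of -0.00783, -0.159 and -0.217), and they share only a number. Of the genes past an unadjusted p of 0.05, 145 were higher and 204 lower, but 184 and 182 under median ratio scaling and 180 and 173 under quantile normalization. With 3 mice per group and an unknown number of reads, differences within the spread between mice were not detectable.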
